A study of Phrynocephalus vlangalii with 2 samples.

Results

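Fatty acids are built in the cytosol from acetyl-CoA, which ATP citrate lyase releases from citrate. Acetyl-CoA carboxylase turns it into malonyl-CoA in the committed step, and fatty acid synthase joins malonyl units into palmitate. Stearoyl-CoA desaturase then sets a double bond into saturated chains, the front-end fatty acid desaturases add further double bonds to polyunsaturated chains, and the elongases of very long chain fatty acids lengthen both. In vertebrates the liver and fat tissue are known as main sites of this pathway, and the sterol regulatory element-binding factors switch on its genes.

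The assembled genes described here are those whose annotation text names one of these enzymes or factors, found by a search of the text in any case. This gave 35 of the 58458 assembled genes in the deposited table, under 15 annotation names, of which 6 had several copies. An assembled gene is a cluster of transcripts that the Trinity assembler built from the reads, so that copies of one name may be true paralogs, fragments of one gene or sequences of another organism. All 35 passed the minimum of 10 reads over both libraries, 13 of them through Madoi reads alone. The text search used no read count, but the set was chosen with earlier results of these data known.

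The Madoi library came from adult toad-headed lizards (Phrynocephalus vlangalii) of the Madoi population, and the Maqu library from adults of the Maqu population. Both were labelled as liver, lung, heart and muscle. No altitude, sex, season or number of animals is given in the labels, and there was 1 library per population. The deposited counts summed to 63636521 estimated reads in Madoi and 66401051 in Maqu. With 1 library each there is no spread between replicates and no test, so every ratio describes this pair of libraries and not the populations. Intervals are exact 95% Clopper-Pearson intervals and cover counting error only, since reads are not independent molecules. Because 4 tissues were mixed, a smaller share of one tissue and less RNA per cell of that tissue cannot be told apart. Markers of the labelled tissues were read in both libraries, among them fast skeletal muscle troponin I at 2009 and 2087 CPM (reads per 1000000 reads of the TMM-scaled library), surfactant protein A of lung at 110 and 238 CPM, natriuretic peptide A of heart at 53.0 and 56.3 CPM and fibrinogen alpha chain of liver at 250 and 456 CPM, in Madoi and Maqu in turn.

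A copy was called higher or lower in Madoi when its log2 ratio of TMM-scaled reads, Madoi over Maqu, passed 1 in either direction, which is 2-fold, and its interval excluded equality. Of the 35 copies, 17 were called higher, 2 lower and 16 neither. Over all 58439 assembled genes with at least 10 reads, 28.5% were called higher and 10.7% lower. A total of 13 copies had 0 reads in Maqu and are given apart, because they may not be lizard genes, and 1 more had a single read there. Among the 22 copies with at least 1 read in Maqu, 4 were called higher and 2 lower, where 13.2% of all assembled genes read in both libraries were called higher and 12.5% lower. In shares, these are 18.2% and 9.09% of the 22. Leaving out also the copy with a single read in Maqu, 3 of 21 were higher and 2 lower, where 12.1% and 12.5% of all assembled genes treated that way were called. The 3 higher ones were copies of stearoyl-CoA desaturase, acetyl-CoA carboxylase and fatty acid synthase, and the shares called among these 21 lie near those of all assembled genes.

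ATP citrate lyase, which supplies the acetyl-CoA, had 1 copy (comp33652_c0, 4207 bases). It had 6912 reads in Madoi and 5810 in Maqu, or 24.8 RPKM (reads per 1000 bases and 1000000 reads) against 20.1 RPKM. The log2 ratio was 0.36, with a counting interval from 0.31 to 0.41. The Madoi library was thus the higher one by more than counting error, yet well under 2-fold, and 21.4% of the 6050 assembled genes with at least 1000 reads in each library had a higher ratio.

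Acetyl-CoA carboxylase, the enzyme of the committed step, had 2 copies that differed. The longer copy (comp40773_c1, 8446 bases, 9 transcripts) had 8760 reads in Madoi, against 7164 in Maqu, and its log2 ratio was 0.40 (0.36 to 0.45). The shorter one (comp39592_c0, 4351 bases, 1 transcript) had 3323 reads in Madoi and 1185 in Maqu, with levels of 11.5 RPKM and 3.96 RPKM. Of the 6050 well-read assembled genes, 26 had a higher ratio, but genes with under 1000 reads in Maqu are left out there. This copy was near that minimum. The Madoi library was 3.03-fold higher for it, with an interval from 2.83-fold to 3.24-fold. The shorter copy therefore made up more of the enzyme's reads in Madoi, with 3323 of 12083 reads there and 1185 of 8350 in Maqu. By RPKM, its level was 0.701 of that of the longer copy in the Madoi library, against 0.282 in the Maqu library. For the longer copy the authors' log2 ratio of RPKM was 0.23, below the 0.40 from counts, so the shift by RPKM is approximate. Vertebrates are known to have a cytosolic and a mitochondrial form of this enzyme, and the annotation text is the same for both copies, so which form each one is was not determined. Summed over both copies, the name stood at a log2 ratio of 0.64 (0.60 to 0.68).

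Fatty acid synthase had 10 copies, of which 1 carried nearly all reads. This copy (comp40420_c0, 8183 bases) had 25123 reads in Madoi and 13307 in Maqu, or 46.0 RPKM against 23.5 RPKM. Its log2 ratio was 1.03 with a counting interval from 0.997 to 1.06, so that it lay at the 2-fold threshold. It stood at 0.98, short of the call, when libraries were scaled by their totals, and at 0.97 from the authors' RPKM. Among the 6050 well-read assembled genes, which leave out those with under 1000 reads in Maqu, 114 had a higher ratio. A short fragment (comp290614_c0, 204 bases) had 8 reads in Madoi and 19 in Maqu, with a log2 ratio of -1.09 and a counting interval from -2.54 to 0.12. Its only gene ontology term is ATP binding and its orthology class is protein turnover and chaperones, a class no other copy of the set has, so its name is uncertain. The other 8 copies had 0 reads in Maqu.

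Stearoyl-CoA desaturase, which makes monounsaturated from saturated fatty acids, had the largest ratio of the well-read copies. Its main copy (comp31622_c1, 1735 bases) had 11108 reads in Madoi and 2678 in Maqu, or 99.2 RPKM against 23.0 RPKM. The Madoi library was 4.48-fold higher, with an interval from 4.29-fold to 4.67-fold and a log2 ratio of 2.16. Of the 6050 assembled genes with at least 1000 reads in each library, 8 had a higher ratio. The minimum of 1000 reads in Maqu leaves out copies with larger ratios, such as the next one. A second copy of similar length (comp39951_c0, 1709 bases) had 8686 reads in Madoi and 1 in Maqu, or 78.8 RPKM against 0.01 RPKM. Its log2 ratio was 12.59, with a counting interval from 10.72 to 18.50. In Madoi these 2 copies were thus read to a similar extent per length, while in Maqu the second was all but unread. The 5 copies of this name carried 5 different protein identifiers in the file. Whether the second copy is a lizard gene was not tested. Beside these values, 30 names of the liver list, among them clotting and complement genes, summed to 5141 CPM in Madoi, against 9020 CPM in Maqu. Whether each of these is made only in liver was not tested. The 4 fat marker names summed to 333 CPM in Madoi, against 444 CPM in Maqu. The part of liver and fat in the desaturase and synthase values was not tested.

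**Figure D1:**
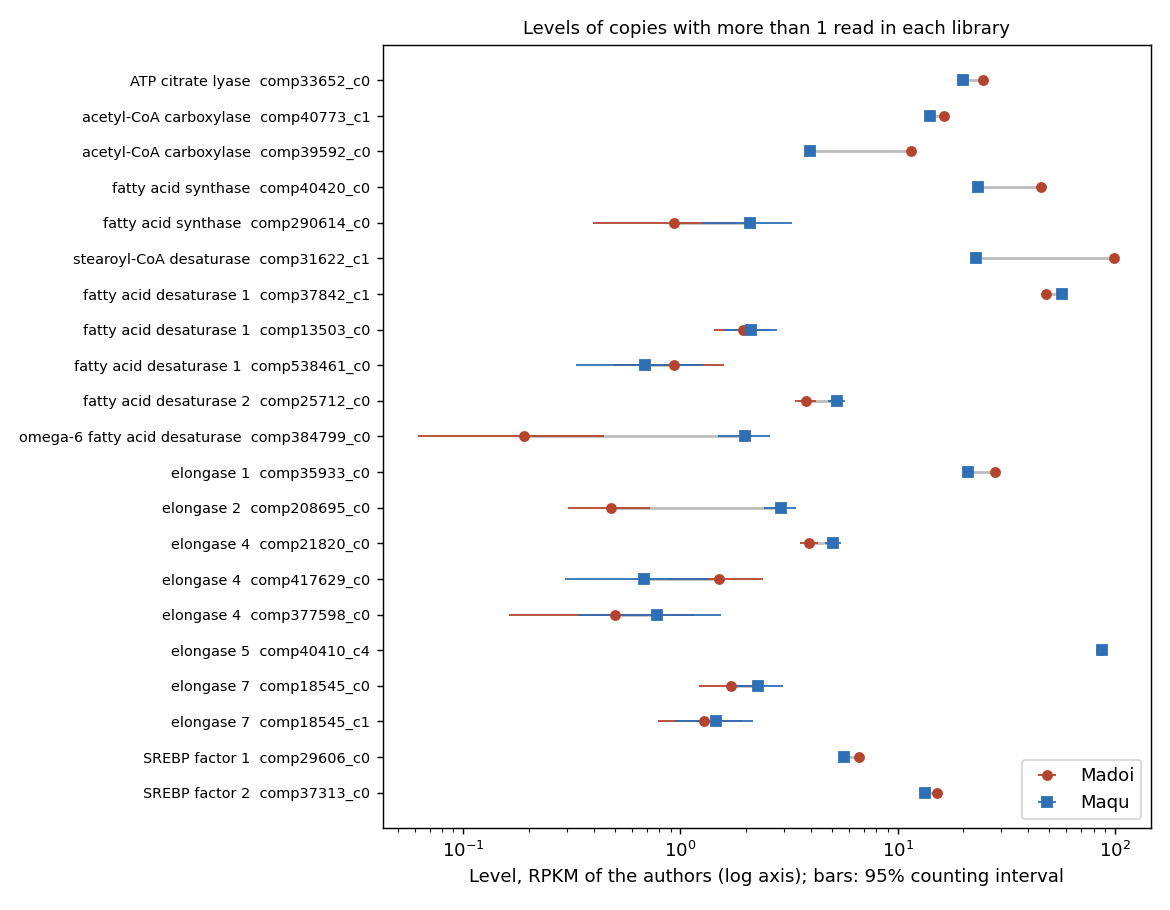
Level of 21 of the 22 copies read in both libraries, without the desaturase copy that has 1 read in Maqu, in the authors' RPKM on a log axis, with Madoi as circles, Maqu as squares, 95% counting intervals as bars and 1 library per population. Stearoyl-CoA desaturase (comp31622_c1) shows 99.2 RPKM in Madoi and 23.0 RPKM in Maqu, while the 2 points of elongase 5 lie on each other.

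Stearoyl-CoA desaturase can also be set against the rest of the pathway within each library, a comparison that needs no scaling between libraries. Per length, its main copy was at 2.16 times the level of fatty acid synthase in Madoi, against 0.983 times in Maqu. It was at 2.06 times the level of fatty acid desaturase 1 in Madoi, against 0.403 times in Maqu. Against elongase 5 it stood at 1.14 times in Madoi and 0.264 times in Maqu. Fatty acid synthase in turn was at 1.85 times the level of ATP citrate lyase in Madoi, against 1.17 times in Maqu.

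The order of levels differed between the libraries. Among the 21 copies left without the desaturase copy read once in Maqu, which stood at 78.8 RPKM in Madoi, the highest RPKM in Madoi was that of the main stearoyl-CoA desaturase copy, followed by elongase 5 at 86.7, fatty acid desaturase 1 at 48.1, fatty acid synthase at 46.0, elongase 1 at 28.3 and ATP citrate lyase at 24.8. No neighbours among these 6 had overlapping counting intervals. These intervals cover counting error only, and levels compared between genes of different length are approximate. In Maqu the order by RPKM was elongase 5 at 87.3, fatty acid desaturase 1 at 57.1, fatty acid synthase at 23.5, stearoyl-CoA desaturase at 23.0, elongase 1 at 21.1 and ATP citrate lyase at 20.1. There the intervals of fatty acid synthase and stearoyl-CoA desaturase overlapped, as did those of elongase 1 and ATP citrate lyase. Among all assembled genes, stearoyl-CoA desaturase ranked 682nd by RPKM in Madoi and 2758th in Maqu.

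The desaturases of polyunsaturated fatty acids were called in no copy, apart from one named omega-6. Fatty acid desaturase 1, the delta-5 enzyme, had a main copy (comp37842_c1, 3669 bases) with 11587 reads in Madoi and 13712 in Maqu. Its log2 ratio was -0.13 (-0.17 to -0.10), and 68.8% of well-read assembled genes had a higher one. Its 2 short copies, of 432 and 282 bases, had 47 and 13 reads in Madoi, against 53 and 10 in Maqu, with counting intervals that included equality. Fatty acid desaturase 2, the delta-6 enzyme that acts before it, had 313 reads in Madoi and 453 in Maqu, or 3.77 RPKM against 5.25 RPKM, and a log2 ratio of -0.42 (-0.64 to -0.21). Desaturase 1 stood at 12.8 times the level per length of desaturase 2 in Madoi, and at 10.9 times in Maqu.

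A copy named omega-6 fatty acid desaturase, a delta-12 enzyme best known from plants, was lower in Madoi. It (comp384799_c0, 462 bases) had 5 reads in Madoi, against 54 in Maqu, and was 9.22-fold lower in Madoi (interval from 4.03-fold to 32.1-fold). Both levels were low, at 0.19 RPKM and 1.99 RPKM. Whether it is a lizard gene was not tested.

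The elongases went different ways, and none of the well-read ones passed the 2-fold threshold. Elongase 1, which in mammals lengthens saturated chains, had 6247 reads in Madoi, against 4836 in Maqu, and a log2 ratio of 0.48 (0.43 to 0.53). Elongase 5, which in mammals acts on polyunsaturated chains, had 9015 reads in Madoi and 9983 in Maqu. Its log2 ratio of -0.04 had a counting interval from -0.08 to 0.00, the closest to equality of the well-read copies. This assembled gene held 14 transcripts, the most in the set, so its reads may be spread over several forms.

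Elongase 2, which in mammals extends long polyunsaturated chains, was the other copy called lower. It (comp208695_c0, 787 bases) had 23 reads in Madoi and 144 in Maqu, or 0.48 RPKM against 2.89 RPKM. This is 5.70-fold lower in Madoi, and the counting interval ran from 3.72-fold to 9.44-fold. In the Madoi library its level was among the lowest of the set, and in Maqu it was below the main copies of both front-end desaturases.

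Elongase 4, which makes very long chains in the retina and skin of mammals, had a main copy (comp21820_c0, 1696 bases) with 429 reads in Madoi, against 573 in Maqu, and a log2 ratio of -0.31 (-0.49 to -0.12). Its 2 short copies, of 242 and 221 bases, had 17 and 5 reads in Madoi, against 8 reads each in Maqu. The first of them stood at a log2 ratio of 1.15, but its counting interval from -0.09 to 2.62 included equality. Elongase 7 had 2 short copies of one assembly component (comp18545_c0 and comp18545_c1), with 39 and 21 reads in Madoi against 54 and 25 in Maqu. Their log2 intervals, from -0.99 to 0.26 and from -1.05 to 0.75, included equality as well.

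**Figure D2:**
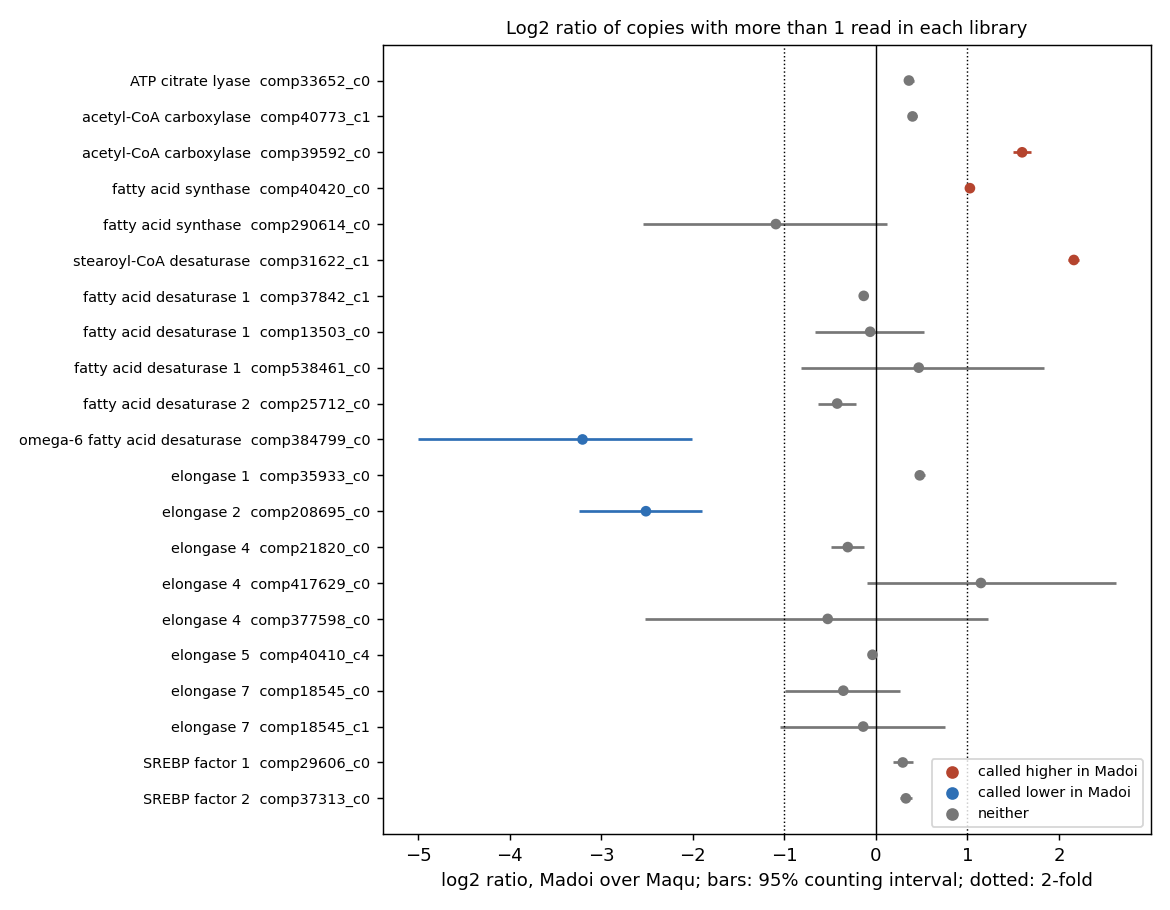
Log2 ratio, Madoi over Maqu, of the same 21 copies, with 95% counting intervals as bars, dotted lines at 2-fold and colour by call. The 3 copies called higher are stearoyl-CoA desaturase at 2.16, acetyl-CoA carboxylase comp39592_c0 at 1.60 and fatty acid synthase at 1.03, and the 2 called lower are elongase 2 and omega-6 desaturase at -2.51 and -3.20.

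The transcription factors of the pathway stood slightly above equality, and neither was called. Sterol regulatory element-binding factor 1, which in mammals acts mainly on fatty acid genes, had 1447 reads in Madoi and 1274 in Maqu, or 6.68 RPKM against 5.66 RPKM. Its log2 ratio was 0.29 (0.18 to 0.40). Factor 2, which in mammals acts mainly on cholesterol genes, had 4447 reads in Madoi, against 3823 in Maqu, and a log2 ratio of 0.33 (0.27 to 0.39). Per length, factor 2 was at 2.26 times the level of factor 1 in Madoi and at 2.36 times in Maqu. The counts are of RNA and do not show how much of either factor was cleaved into its active form.

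Taking the set by depth, the 10 copies with at least 1000 reads in each library had a median log2 ratio of 0.38, beside 0.06 for all 6050 such assembled genes, and 8 of the 10 lay above 0. The other 11 copies with more than 1 read in each library were 204 to 1696 bases long, and 2 of them passed the call, both lower. Over the 22 copies with reads in both libraries the median was 0.13, beside -0.01 for all such assembled genes, and it was -0.04 without the copy read once in Maqu. The reads of these 21 copies summed to 1421 CPM in Madoi and 965 CPM in Maqu, a log2 ratio of 0.56. Stearoyl-CoA desaturase and fatty acid synthase made most of that difference, with 178 and 402 CPM in Madoi for their main copies, against 39.7 and 197 CPM in Maqu.

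The 13 copies with 0 reads in Maqu belonged to 4 names: 8 to fatty acid synthase, 3 to stearoyl-CoA desaturase, 1 to elongase 4 and 1 to elongase 6. They were 37.1% of the set, while 17.7% of all assembled genes and 20.2% of the annotated ones had 0 reads in Maqu. Each copy counts on its own in these shares, also where copies may be pieces of one gene. The fatty acid synthase copies comp22601_c0 and comp22601_c1, for instance, are of one assembly component. None of the 35 copies had 0 reads in Madoi, where 0.518% of all assembled genes did. The 13 were short, from 218 to 1247 bases with a median of 543, close to the median of 533 bases over all 2920 annotated assembled genes with 0 reads in Maqu. Their levels in Madoi ran from 1.75 to 11.2 RPKM, with a median of 3.68 RPKM beside 4.59 RPKM for those 2920. A count of 0 in Maqu allows up to 3 reads, for counting error only.

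Within fatty acid synthase, the 8 copies with 0 reads in Maqu had 61 to 423 reads in Madoi and lay in a narrow range of 3.21 to 5.75 RPKM, well under the 46.0 RPKM of the main copy. The largest (comp22449_c0, 1165 bases) had 423 reads in Madoi, against 0 in Maqu, and was at least 152-fold higher against the limit of 3 counts. Folds of this kind take the Madoi count as exact. Their lengths summed to 5170 bases. They carried 4 different protein identifiers, 1 carried none, and 2 shared the identifier of the main copy. Whether they are fragments of one gene was not tested. Together they held 1264 reads, or 4.79% of the Madoi reads of this name, and the name's log2 ratio was 1.10 with them and 1.03 without.

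Within stearoyl-CoA desaturase, the 3 copies with 0 reads in Maqu (comp33782_c0, comp30464_c0 and comp632095_c0) had 790, 491 and 17 reads in Madoi. Against the limit of 3 counts in Maqu they were 284-fold, 177-fold and 6.12-fold higher. Their 95% counting intervals, which also cover the Madoi count, began at 231-fold, 143-fold and 4.45-fold. With the copy read once in Maqu, these made up 47.3% of the Madoi reads of the name. The name as a whole had 21092 reads in Madoi and 2679 in Maqu, which is 8.50-fold, and the main copy alone was 4.48-fold higher. The choice of copies thus changed the size of the desaturase difference. Adding these copies to the main copy could not turn the direction, because they had almost no reads in Maqu.

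Elongase 6, which in mammals lengthens palmitate for the desaturase, was represented by a copy of 690 bases (comp12431_c0) with 143 reads in Madoi and 0 in Maqu. It was 51.4-fold higher in Madoi against the limit of 3 counts, and its 95% counting interval began at 41.3-fold. No other copy of that name was there to set beside it. The elongase 4 copy with 0 reads in Maqu (comp15290_c0, 318 bases) had 80 reads in Madoi, 28.8-fold higher against that limit. Its counting interval began at 22.9-fold. With this copy the reads of elongase 4 stood at a log2 ratio of -0.04 (-0.21 to 0.13), and without it at -0.27 (-0.46 to -0.10). Whether these copies come from the lizard was not tested.

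**Figure D3:**
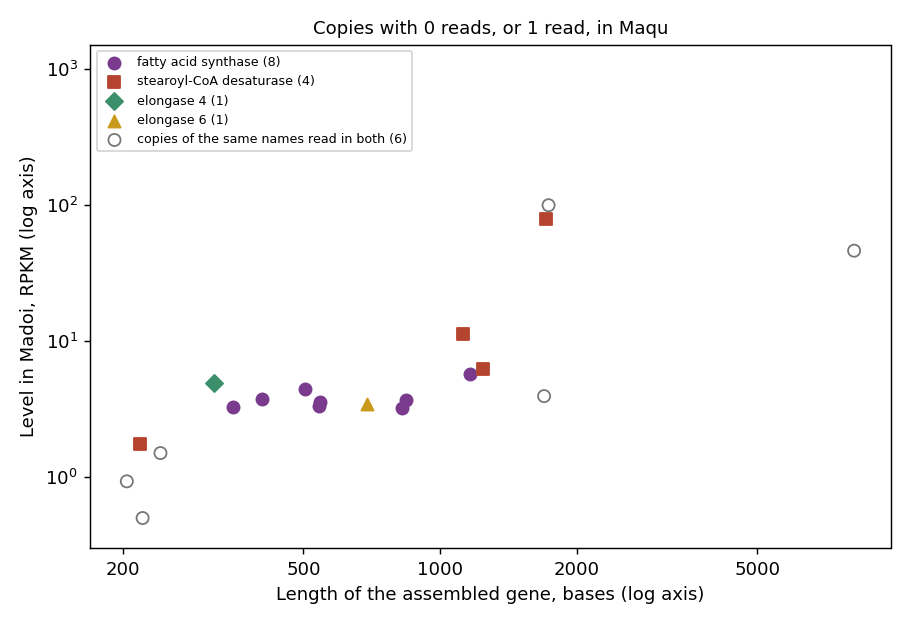
Level in Madoi (RPKM, log axis) against length (bases, log axis) for the 13 copies with 0 reads in Maqu and the stearoyl-CoA desaturase copy with 1 read there, coloured by name, with the other 6 copies of the same names, which were read in both libraries, as open circles. The 8 fatty acid synthase copies lie between 3.21 and 5.75 RPKM over lengths of 349 to 1165 bases, and the desaturase copy with 1 read in Maqu stands apart at 78.8 RPKM.

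**Figure D4:**
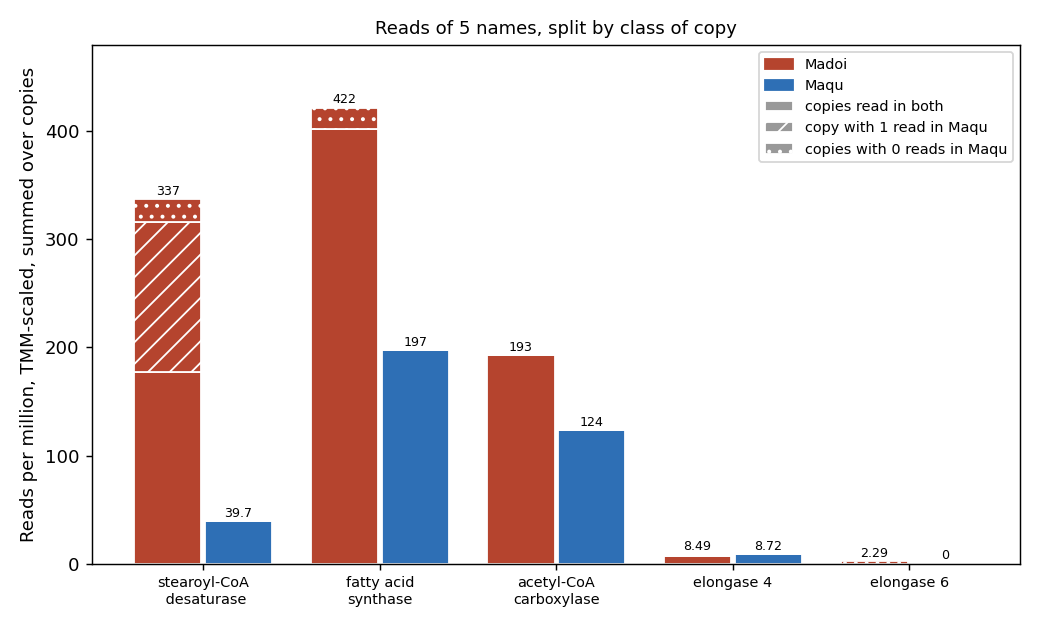
TMM-scaled CPM summed over the copies of 5 names, Madoi beside Maqu, with hatching for copies that have 1 or 0 reads in Maqu and 1 library per population. Stearoyl-CoA desaturase reached 337 CPM in Madoi and 39.7 CPM in Maqu, with 139 CPM of the Madoi value in the copy read once in Maqu, and fatty acid synthase 422 CPM in Madoi and 197 CPM in Maqu.

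The authors' deposited table marks 7 of the 35 copies as significant, and 10.4% of all assembled genes. Its mark holds for every assembled gene with an unadjusted p under 0.05 and a log2 ratio of at least 1 in size, and for no other, so it does not use the FDR column. Of the 7 marked copies, 5 had 0 reads in Maqu and may not be lizard genes. The others were the main stearoyl-CoA desaturase copy and the one with 1 read in Maqu. In the authors' deposited table, 3 of the 7 had an FDR of at most 0.05, all of them stearoyl-CoA desaturase copies, with FDR 2.05e-08 for the main copy, 4.34e-15 for the one with 1 read in Maqu and 0.0498 for comp33782_c0. For the main fatty acid synthase copy the authors' deposited table gives p 0.0185, FDR 0.28 and no mark. For acetyl-CoA carboxylase comp39592_c0 the authors' deposited table gives FDR 0.519 and no mark, although its fold was larger, at 3.03 beside 2.04 for fatty acid synthase. These values compare 2 single libraries, and the sources used here do not name the test behind them.

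The genes around the pathway were taken from 6 lists with 42 annotation names, the reads of each name summed over copies. Of the 42, 8 were called higher and 4 lower in Madoi, where 11.6% of all names were called higher and 6.33% lower. Without copies at 0 reads in one library or beyond a log2 ratio of 5, 3 of 40 names were higher and 5 lower, beside 4.17% and 7.05% of all names treated that way. Leaving out only copies at 0 reads in one library, 4 names were higher and 5 lower, where 5.89% of all names were higher and 7.09% lower. The values that follow are log2 ratios without copies at 0 reads in one library or beyond a log2 ratio of 5, unless stated.

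The supply list, for carbon and reducing power, also holds isocitrate dehydrogenase (NAD+) at 0.17 and malate dehydrogenase (oxaloacetate-decarboxylating) at 0.46. The name of the first gives NAD+, not NADP+, as its cofactor. Over the 7 names of the list the median was 0.46, which is the value of that malate dehydrogenase, and 1 name was called higher. This was the NADP-dependent malic enzyme, which yields NADPH for fatty acid synthase, at 1.08 (1.01 to 1.15). Its 2 copies outside those classes differed, with 4125 reads in Madoi against 1382 in Maqu for comp37061_c0, and 973 reads in Madoi against 1226 in Maqu for comp36718_c1. Isocitrate dehydrogenase, called higher at 1.10 with all copies, stood at 0.67, and acetyl-CoA synthetase, which activates acetate, at 0.66, short of the threshold, and the pentose phosphate enzymes glucose-6-phosphate 1-dehydrogenase and 6-phosphogluconate dehydrogenase at -0.10 and 0.12. The single copy of citrate synthase held 2300 Madoi reads and 0 Maqu reads, 827-fold higher against 3 counts, and is not among the 7. Whether it, or any other related copy with 0 or few reads in Maqu, is a lizard gene was not tested.

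Of the elongases read in both libraries, elongase 1 stood above 0 at 0.48. Elongase 2 at -2.51 and the main copy of elongase 4 at -0.31 stood below it. Elongases 5 and 7 had intervals that included equality. The enzymes that complete each elongation cycle stood below 0. Beta-keto reductase was at -0.44, 3-hydroxy acyl-CoA dehydratase at -0.26 and enoyl reductase at -0.60, and cytochrome-b5 reductase, which passes electrons to the desaturases, at 0.16. None of these 4 names was called, but single copies were. Beta-keto reductase comp32129_c0, with 154 reads in Madoi and 377 in Maqu, was called lower at -1.18. Enoyl reductase comp34468_c0, with 677 reads in Madoi and 1759 in Maqu, was called lower at -1.27. No other copy of these names with reads in both libraries was called. Mitochondrial fatty acid synthesis, a separate route that feeds lipoic acid, had a median of 0.05 over 5 names. In it the 3-oxoacyl reductase was higher (5893 reads in Madoi, 2253 in Maqu, interval 1.43 to 1.57). Lipoyltransferase 1 was lower at -1.02, but stood at 0.15 with its copy of 0 reads in Maqu. The 3-oxoacyl synthase II was called higher at 1.74 with all copies and stood at 0.50 without, and lipoyl(octanoyl) transferase had 226 reads in Madoi against 0 in Maqu.

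Among genes of fatty acid activation and binding, 1 of 8 was higher and 2 were lower. Malonyl-CoA decarboxylase, which breaks down the substrate of fatty acid synthase, had 1420 reads in Madoi, against 3919 in Maqu, and was 2.56-fold lower in Madoi. Intestinal fatty acid-binding protein 2 was 2.29-fold lower, from 1004 Madoi reads against 2479 Maqu reads. Liver fatty acid-binding protein 1 was 2.30-fold higher from few reads, 88 in Madoi and 41 in Maqu. Long-chain acyl-CoA synthetase stood at -0.76, summed over copies that differed. Copy comp28133_c0 had 5798 reads in Madoi, against 15651 in Maqu, and was called lower at -1.32. The other copies read in both libraries ran from -0.58 to 0.24 and were not called.

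Of 10 names of regulators 0 were called higher and 2 lower. The liver X receptor named nuclear receptor subfamily 1, group H, member 2, had 356 reads in Madoi, against 943 in Maqu, and was 2.45-fold lower in Madoi. Member 3 of that group stood at 0.01. S2P endopeptidase, which makes the second cut that frees the sterol regulatory element-binding factors, had 215 reads in Madoi, against 488 in Maqu, and was lower at -1.07, and the site 1 protease that makes the first cut stood at -0.02. The catalytic alpha subunit of AMP-activated protein kinase, which inhibits acetyl-CoA carboxylase, stood at 0.36.

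Triacylglycerol assembly had a median of -0.26 over 6 names, none of them called. Diacylglycerol O-acyltransferases 1 and 2, which make the last bond of triacylglycerol, stood at 0.21 and -0.47, and perilipin, which coats fat droplets, at -0.74. The copies of acyltransferase 2 went different ways, from -1.01 for comp22569_c0 to 0.84 for comp159854_c0. The first of these, with 912 reads in Madoi and 1982 in Maqu, was called lower, and no other copy was called. Phosphatidate phosphatase had a log2 ratio of 2.56 with all copies and -0.06 without a single one that had 20548 reads in Madoi and 3 in Maqu.

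**Figure D5:**
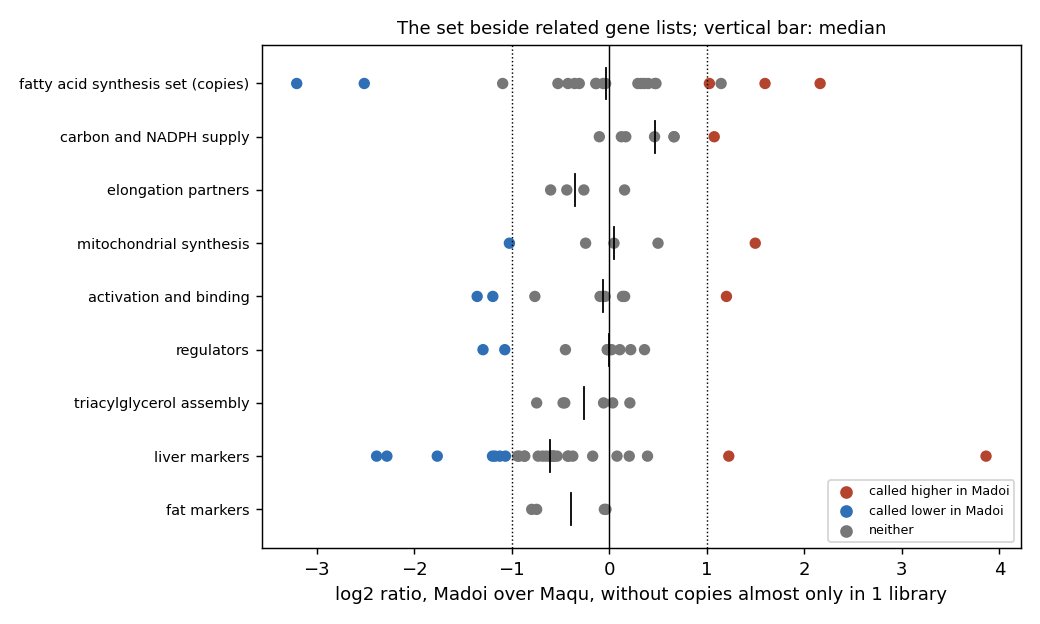
Log2 ratio, Madoi over Maqu, of the 21 copies of the fatty acid synthesis set and of the names of 6 related lists and of the liver and fat markers, all without copies almost only in 1 library, with a vertical bar at each median and dotted lines at 2-fold. The supply list lies highest with a median of 0.46 and the liver markers lowest with -0.60.

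Markers of liver, a main site of this pathway, were mostly below 0 in log2 ratio, and those of fat were all below 0. Of 30 liver marker names, 7 were lower and 2 higher in Madoi, with a median log2 ratio of -0.60. Of all names, 6.33% were lower and 11.6% higher with all copies, and 7.05% and 4.17% without copies almost only in 1 library. The 2 higher liver names were apolipoprotein A-I and apolipoprotein A-IV, the second with only 20 reads in Madoi and 1 in Maqu. Complement component 3 and the s subcomponent of component 1 had the highest levels of the liver names in Maqu. They stood at 1753 and 1323 CPM there, against 838 and 390 CPM in Madoi. Of 4 fat marker names none was called. Adiponectin at -0.03 (-0.07 to 0.00) and hormone-sensitive lipase at -0.05 (-0.17 to 0.07) had intervals that included equality. Lipoprotein lipase stood at -0.80 and perilipin, also in the triacylglycerol list, at -0.74. No marker of either list was at 0 in a library. The lung list had 2 of 4 names lower with all copies and 3 of 4 without copies almost only in 1 library, with sums of 509 CPM in Madoi, against 898 CPM in Maqu, and the heart list 2 of 4 higher, with 115 and 112 CPM in Madoi and Maqu. Fast muscle names summed to 5791 CPM in Madoi and 5487 CPM in Maqu. The type I and type II keratin names summed to 1862 CPM in Madoi, against 1453 CPM in Maqu. These names give no tissue, and whether the keratins come from skin was not tested. The pancreas list summed to 69.4 CPM in Madoi and 413 CPM in Maqu. Of the 8 pancreas names 5 were lower and 2 higher with all copies, and of the 3 left without copies almost only in 1 library 2 were lower and 0 higher. Chymotrypsin turned its direction between these counts, at 1.65 with all copies and -4.58 without. Of 3 nervous system names 2 were higher with all copies, and 1 of 2 without such copies, with sums of 48.3 CPM in Madoi and 39.8 CPM in Maqu. The CPM sums of all marker lists are over all copies. The part of the other tissues in the values of the set was not tested either.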

How the data were processed

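RNA of adult lizards labelled liver, lung, heart and muscle was extracted with a Promega kit and made into standard Illumina libraries, 1 for Madoi and 1 for Maqu, per the labels' protocols. Trinity, BLAST and KaKs_Calculator were used, per the series' design text; the sources used here name neither the counting tool nor any version. The authors deposited expected counts, that is estimated and partly fractional read numbers, which were rounded to whole numbers here. How the RPKM deposited by the authors were made is not stated. Counts divided by listed effective length and by RPKM would imply library totals of 51.0 to 65.9 in Madoi and 52.8 to 68.6 in Maqu. These are the 5th to 95th percentile in units of 1000000 reads, over assembled genes with 1 transcript and at least 5 RPKM. The divisor was thus not the listed effective length with 1 total, and levels compared between genes of different length are approximate. The log2 ratios deposited by the authors are of Madoi over Maqu RPKM. The p-values and FDR deposited by the authors compare 2 single libraries.

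Libraries were scaled by TMM (edgeR 4.0.16; factors 0.983 for Madoi and 1.02 for Maqu). To each count 0.5 was added, in proportion to depth, before taking log2 ratios. Calls needed at least 10 reads together, a 2-fold difference and a 95% Clopper-Pearson interval excluding equality; RPKM intervals are exact Poisson ones. All were computed on the whole table with Python 3.11.15, numpy and scipy, and tested on simulated data. A fold against 0 reads uses 3 counts in that library. Every assembled gene found by the text search is described. Of the related lists, called names are given, or the 2 highest and 2 lowest; further names were added after their values were seen. List names were matched to annotation texts by hand. The members, lists and settings were chosen with earlier results of these data known. Columns of other samples numbered 0.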

Additional observations from a re-analysis of the deposited data

How the results depend on the processing

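Scaling by library totals or by DESeq2 size factors kept every count of calls within 1.5 times. So did no filter, a filter of 50 reads, no counting interval and a pseudocount of 5 reads. No called copy turned its direction under any setting. Copies with 0 or 1 reads in Maqu could not turn under these settings. The filters, thresholds and interval rule leave each copy's ratio as it was. With a 4-fold threshold, higher calls among copies with at least 1 read in Maqu fell to 2, related names to 3 higher and 0 lower, and lower calls of all assembled genes to 3.76%. Without copies at 0 reads in one library, 4 copies of the set, 4 related names and 13.2% of all assembled genes were higher. Without copies almost only in one library these were 3, 3 and 12.1%. Taking each name's best-read copy, 7 related names were lower. The main fatty acid synthase copy, at the threshold, was the only one whose call was lost on another scaling, at 0.98, and by the authors' RPKM, at 0.97. Stearoyl-CoA desaturase's main copy and acetyl-CoA carboxylase comp39592_c0 kept their call except, for the second, at 4-fold. For short copies with few reads, depth limits what can be seen. No paired analysis was possible because each population has 1 library. No replicate could be left out for the same reason.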
